A study of Homo sapiens with 10 samples.

Results

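The ERBB receptors and their ligands were followed in SKBR3 cells, an established breast carcinoma line in which the gene of HER2 (ERBB2) is amplified. The set was given by name as the receptors EGFR, ERBB2, ERBB3 and ERBB4 and the ligands AREG, EREG, HBEGF, TGFA, NRG1 and BTC, 10 genes in all, with every probe set that the annotation assigns to 1 of them alone. A probe set is a group of short oligonucleotides that together report 1 transcript. Of these genes 9 had such probe sets, 38 in number, out of 41097 probe sets with 1 gene symbol on the array. AREG was not analysed here. A signal filter kept the upper 50% of all probe sets, those with a mean signal above 35.4. It kept 14 of the 38, and 5 genes (EGFR, ERBB2, ERBB3, HBEGF and TGFA) were among the 12022 genes tested.

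All cells carried p53R175H, were grown with charcoal-stripped serum, and were transfected with an siRNA to p53 (p53i) or with one to LacZ, a bacterial gene (LacZi, the negative control). Calcitriol, the active hormone made from vitamin D (D3 below), was then given at 100 nM. The 8 groups were p53i cells after 8, 20 and 50 h of D3 and p53i cells left untreated, and LacZi cells in the same conditions, with 1 array for each siRNA and D3 time and 2 arrays for each untreated group. SKBR3 is a single line, so it models 1 tumour, and as no untreated array was labelled with a D3 time, effects of D3 and of longer culture cannot be told apart.

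ERBB receptors are tyrosine kinases of the cell surface that pair with each other and signal through the RAS-MAPK and PI3K-AKT cascades. HBEGF, TGFA, AREG, EREG and BTC bind EGFR, some of them also ERBB4, and NRG1 binds ERBB3 and ERBB4. ERBB2 has no known ligand of its own and acts as the preferred partner of the other receptors, and its amplification drives a class of breast carcinomas that includes this line.

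Values are array signals on a linear scale, the same trimmed mean on every array, and differences are on log2(signal + 16). Median signals were 35.7 to 44.3. CYP24A1, the D3-degrading enzyme and a classic D3 target, had signals of 4234 to 6476 on the 6 D3 arrays, against 23.7 to 40.0 on the 4 untreated arrays. Knockdown of p53 itself was not analysed here. The ratio of 3' to 5' control signals of ACTB grows when RNA is degraded or labelled incompletely. It was 4.39 to 8.72 on p53i arrays and 3.79 to 5.05 on LacZi arrays, with the highest value on p53i untreated replicate 2. The ratio ran higher with p53i, so fits with it as a covariate cannot tell apart RNA quality and knockdown. Of 6 luminal epithelial markers, 5 passed the signal filter, and CDH1, the cell adhesion protein E-cadherin, did not, with signals of 2.80 to 23.9. The luminal markers summed to 74315 to 95187 on p53i arrays and 63765 to 70328 on LacZi arrays, and KRT7 and KRT8 were called higher in p53i cells, by 0.32 and 0.42, where 6.5% of all genes tested were called in either direction. Of the fibroblast, leukocyte and endothelial markers, 1 of 5, 1 of 3 and 1 of 3 passed the filter.

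HBEGF was the only member called, and only with D3. It encodes heparin-binding EGF-like growth factor, a membrane-anchored ligand of EGFR and ERBB4 that proteases release from the cell. Its signal averaged 133 with D3 and 53.4 without, and it was higher with both siRNAs at each of the 3 times. Start regions from RefSeq were matched by symbol for 8 of the 10 members. That of HBEGF lies at chr5:140346554-140346853 (GRCh38.p14, minus strand) and runs from 250 bases before to 50 after the start. It is shown because HBEGF was the member called, and the region of EGFR, its receptor and a member that was not called, is set beside it (chr7:55018767-55019066, GRCh38.p14, plus strand, the first of 2 listed starts). Both are 5' to 3', and capitals mark matches on either strand to the vitamin D receptor half-site AGGTCA or its variants AGTTCA or GGGTCA or GGTTCA, to the GC box GGGCGG and to TATAAA. Overlapping matches were counted separately.
HBEGF: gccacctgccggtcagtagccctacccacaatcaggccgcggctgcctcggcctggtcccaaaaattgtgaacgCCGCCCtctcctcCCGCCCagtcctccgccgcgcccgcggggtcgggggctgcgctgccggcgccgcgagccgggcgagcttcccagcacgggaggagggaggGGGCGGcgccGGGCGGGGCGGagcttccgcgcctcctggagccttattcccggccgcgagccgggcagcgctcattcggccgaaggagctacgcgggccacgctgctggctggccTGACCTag
EGFR: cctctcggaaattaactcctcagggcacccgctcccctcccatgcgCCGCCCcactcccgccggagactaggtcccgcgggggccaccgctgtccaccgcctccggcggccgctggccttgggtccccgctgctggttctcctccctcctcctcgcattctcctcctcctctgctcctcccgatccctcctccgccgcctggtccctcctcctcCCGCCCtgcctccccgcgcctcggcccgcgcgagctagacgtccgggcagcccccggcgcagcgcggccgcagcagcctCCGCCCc
The HBEGF region held 1 half-site, near its 3' end (TGACCT, the reverse complement of AGGTCA), 5 GC boxes and no TATAAA. The EGFR region held 3 GC boxes and no half-site. A half-site also stood in the region of EREG and in those of both listed starts of TGFA, a member that was tested and not called with D3, and in none of the other regions matched. G and C made up 75% and 75.3% of the bases, against a median of 58.7% over 35116 RefSeq start regions of the same length. At least 1 half-site stood in 38.6% of those regions, a GC box in 45% and TATAAA in 11.5%. A pair of half-sites in the same direction 3 bases apart, the arrangement that the receptor is known to bind, stood in 0.074% of them and in neither of these 2.

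In p53i cells the main HBEGF probe set (203821_at) had signals of 49.1 and 47.1 untreated, then 113, 143 and 97.2 at 8, 20 and 50 h. In LacZi cells it had 56.5 and 61.2 untreated, then 154, 97.6 and 196. All 6 D3 arrays lay above all 4 untreated arrays, where 1.81% of all probe sets separated in that direction. The order of the D3 times differed between the siRNAs. The mean was 133 ± 38.6 with D3 (SD, n = 6) and 53.4 ± 6.5 without (SD, n = 4). The log2 difference was 1.07 ± 0.20 (SE, 95% CI 0.65 to 1.50, limma adjusted p = 0.0138). HBEGF was the 1 member called among the 5 tested, where 4.4% of all genes tested were called. The set is too small for that share to be read against the background. Nothing states that the D3 arrays came from separate cultures, so the p-values cover no more than the spread between these samples, which may be technical. In bulk RNA, a change in the share of cells of a type and a change in RNA per cell cannot be told apart.

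**Figure D1:**
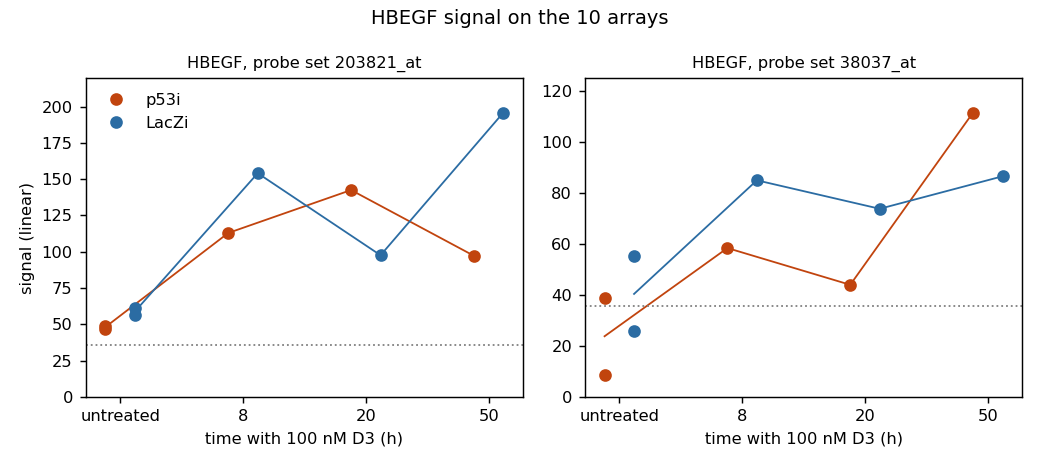
HBEGF signal (linear) on each of the 10 arrays by time with D3, for the main probe set (left) and the second one (right). Points are arrays, lines join the means of each siRNA, and the dotted line is the signal filter at 35.4. On the left all D3 points, 97.2 to 196, lie above the untreated points, 47.1 to 61.2, and on the right the ranges overlap.

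The 3 D3 times share the untreated arrays. At 8 h the log2 difference of HBEGF was 1.10 ± 0.26 (limma adjusted p = 0.219), where 0.175% of genes and 0 of the 5 members were called by limma (1 at an unadjusted p under 0.05). At 20 h it was 0.95 ± 0.26 (adjusted p = 0.126), with 0.591% of genes and again 0 members called (1 at an unadjusted p under 0.05). At 50 h it was 1.16 ± 0.26 (adjusted p = 0.0302) and HBEGF was again the 1 of 5 members called, with 4.31% of genes called. The difference between 50 and 8 h was 0.06 ± 0.30, and 0 of 5 members were called in limma's test of it (0 at an unadjusted p under 0.05), with 0.133% of genes called. The call at 50 h was lost on leaving out LacZi 50 h (0.76, adjusted p = 0.281), p53i 50 h (1.57, 0.0761), LacZi 8 h (1.16, 0.0513) or LacZi untreated replicate 1 (1.14, 0.0729).

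Within the siRNAs, the D3 arrays of p53i cells exceeded their untreated mean by 1.01, 1.31 and 0.82 at 8, 20 and 50 h on the log2 scale. In LacZi cells the same differences were 1.19, 0.60 and 1.50. The response of HBEGF differed between the siRNAs by -0.05 ± 0.41 (95% CI -0.95 to 0.85). This interval takes in both a clearly smaller and a clearly larger response in p53i cells. Of the 5 members, 0 were called for a difference in response in limma's interaction test (0 at an unadjusted p under 0.05), and 0% of all genes were, with 645 genes at an unadjusted p under 0.05. Knockdown itself gave -0.25 ± 0.19 for HBEGF over all conditions (adjusted p = 0.469).

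The second HBEGF probe set past the filter (38037_at) was weaker and more scattered. In p53i cells it had 8.67 and 38.8 untreated, then 58.3, 43.9 and 111 at 8, 20 and 50 h. The LacZi arrays read 25.6 and 55.1 untreated, then 84.9, 73.7 and 86.5 at 8, 20 and 50 h. Each D3 array exceeded the untreated mean of its own siRNA, but the ranges overlapped, 43.9 to 111 with D3 and 8.67 to 55.1 without. Its mean was 76.5 with D3 and 32.0 without, so it passed the filter at 35.4 through the higher D3 signals, and its difference is given as a description that adds no second support for HBEGF. The log2 difference was 1.01 ± 0.27 and was not called over all probe sets (adjusted p = 0.0804). In that fit 1 of the 14 probe sets of the members was called, 203821_at with adjusted p = 0.0175, where 2.49% of probe sets were called. The other HBEGF probe sets, 244857_at and 222076_at, lay below the filter with signals of 0.84 to 29.3. With the mean of all 4 probe sets in place of the strongest one, HBEGF gave 0.60 (adjusted p = 0.0792) and was not called. It also lost the call without LacZi untreated replicate 1 (1.05, adjusted p = 0.0533), and kept it in the other 9 fits that left out 1 array.

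**Figure D2:**
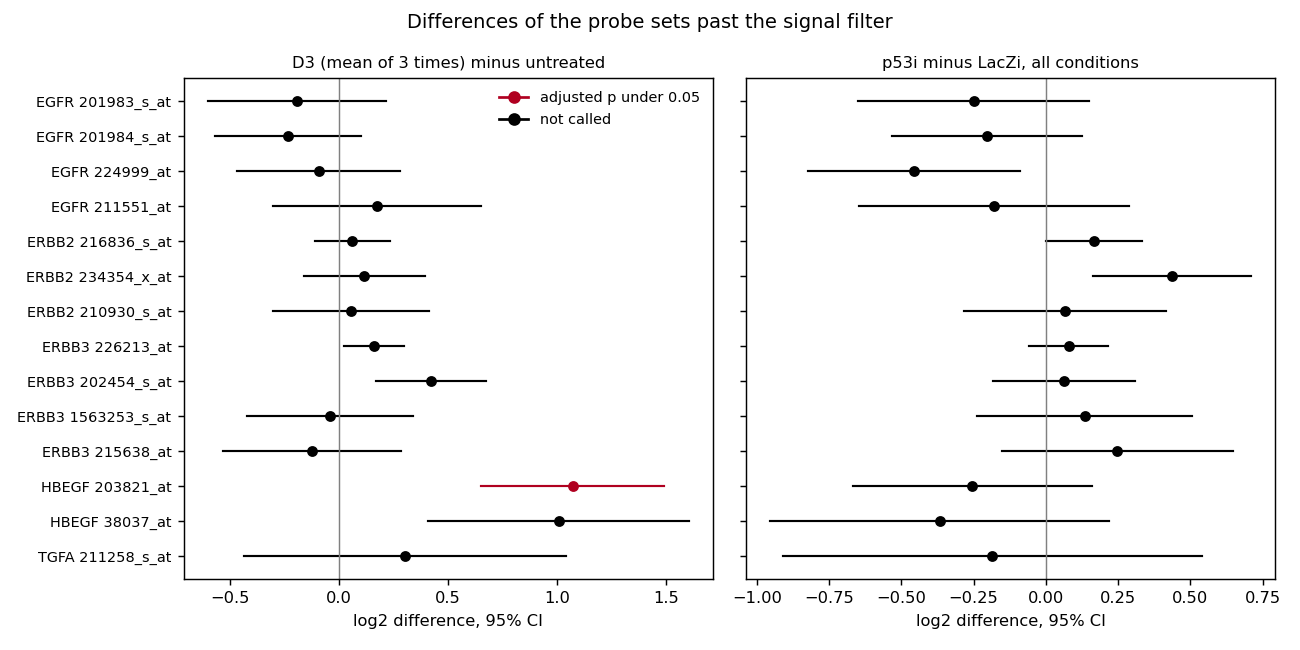
Log2 difference and 95% confidence interval of the 14 probe sets past the signal filter, for D3 (mean of the 3 times) minus untreated on the left and p53i minus LacZi on the right. Red marks adjusted p under 0.05 over all probe sets. The main HBEGF probe set, at 1.07 on the left, is the only red point there, the second one, at 1.01, passed the filter through its D3 signals, and no probe set is red on the right.

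The 3 genes whose values followed HBEGF most closely over the 10 arrays were IKBKG, a subunit of the kinase that activates NF-kappaB (Pearson r = 0.955), PPARD, a lipid-sensing nuclear receptor (0.927), and LOC389831 (0.917). The arrays share the untreated and D3 groups, so any gene that changed with D3 can resemble HBEGF in this way. IKBKG had signals of 477 to 598 with D3 and 344 to 391 without, and PPARD had 1117 to 1315 and 859 to 967.

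Of 3 markers of basal epithelial cells 2 were tested and 1 was called with D3, where 4.4% of all genes tested were called. KRT5, KRT14 and ACTA2 summed to 93.1 to 251 on D3 arrays and 49.9 to 95.1 on untreated arrays, ranges that overlap narrowly. Of these 3, 2 passed the filter, and KRT5, a basal keratin, was called higher with D3 by 1.59 (adjusted p = 0.0133). Its median signal was 40.2, near the filter at 35.4, in a range of 2.40 to 192. Its pass thus leaned on the higher D3 signals, and the call is given as a description. ACTA2, smooth muscle actin, gave 0.16 ± 0.20 (adjusted p = 0.718). KRT14, the keratin that pairs with KRT5, was below the filter, with signals of 2.00 to 25.7. Their part in the HBEGF difference was not tested. The ACTB ratio was 4.60 to 7.11 with D3 and 3.79 to 8.72 without, and with it as a covariate HBEGF gave 1.06 (adjusted p = 0.0158).

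TGFA, transforming growth factor alpha, another membrane-anchored ligand of EGFR, passed the filter with 1 of its 3 probe sets (211258_s_at). Its mean was 46.2 with D3 and 32.4 without, so it passed the filter at 35.4 through the higher D3 signals. In p53i cells its signals were 19.8 and 41.7 untreated, then 13.8, 32.3 and 82.4 at 8, 20 and 50 h. In LacZi cells they were 17.9 and 50.1 untreated, then 42.5, 76.7 and 29.6. No group stood apart, and the untreated duplicates already differed more than 2-fold. The D3 difference was 0.30 ± 0.34 (95% CI -0.44 to 1.05, adjusted p = 0.694) and the knockdown difference -0.18 ± 0.34 (95% CI -0.92 to 0.55, adjusted p = 0.795).

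The remaining ligands stayed below the filter on all their probe sets. EREG, epiregulin, had 0.90 to 31.8 on 2 probe sets. BTC, betacellulin, had 7.42 to 60.1 on 2 probe sets, and NRG1, neuregulin-1, had 0.88 to 57.3 on 6 probe sets. Such MAS5 signals are near background, and no difference was tested for them. The same held for ERBB4, a receptor of NRG1 and HBEGF, with 1.42 to 45.0 on 4 probe sets.

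**Figure D3:**
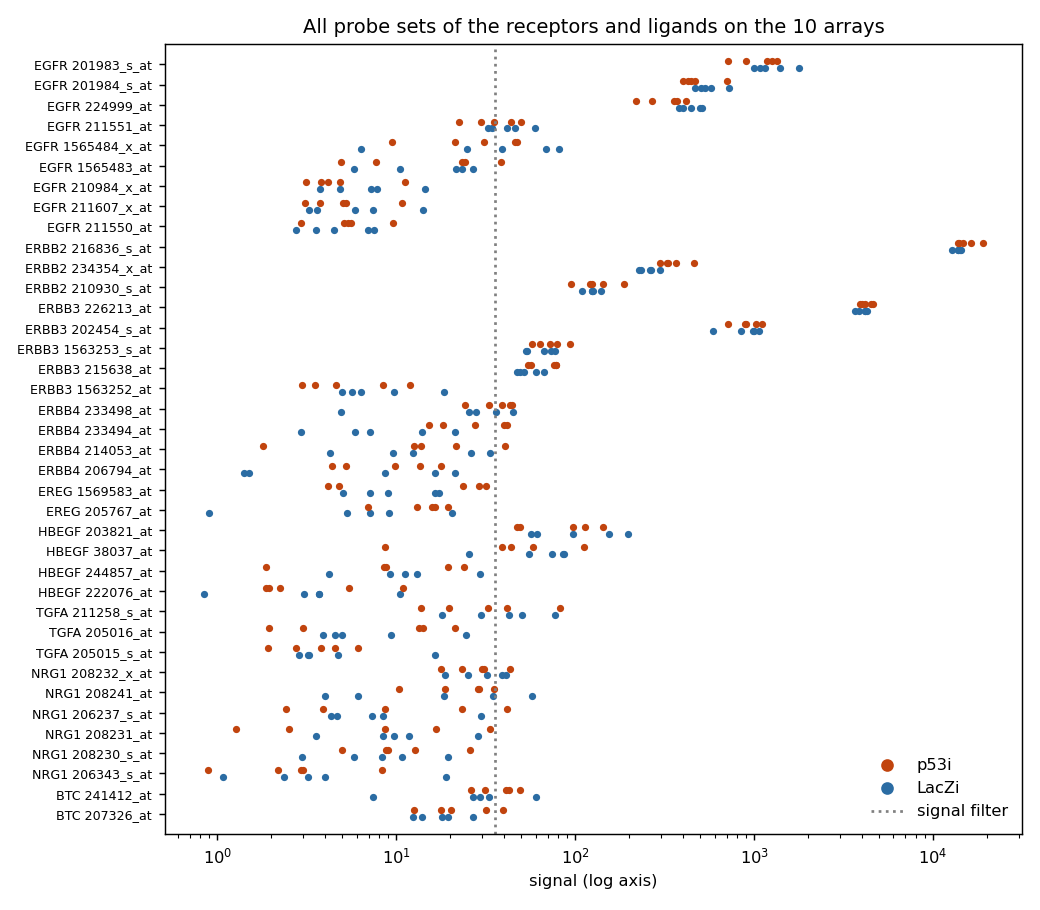
Signal (log axis) of all 38 probe sets of the receptors and ligands on the 10 arrays, p53i in orange and LacZi in blue. The dotted line is the signal filter at 35.4. The points of ERBB4, EREG, NRG1 and BTC crowd left of the line or around it, and those of 216836_s_at (ERBB2) lie at 12690 to 19099.

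EGFR, the receptor of HBEGF and TGFA, passed the filter with 4 of 9 probe sets and was not called in any comparison of genes. Its main probe set (201983_s_at) had 1344 and 715 in untreated p53i cells, then 1176, 903 and 1254 at 8, 20 and 50 h. LacZi cells had 1779 and 1400.5 untreated, then 1003, 1143 and 1078. The untreated p53i duplicates differed almost 2-fold, with the lower value on the array with the highest ACTB ratio, 8.72. The D3 difference was -0.19 ± 0.19 (95% CI -0.60 to 0.21, adjusted p = 0.632) and the knockdown difference -0.25 ± 0.18 (95% CI -0.65 to 0.15, adjusted p = 0.452). Without p53i untreated replicate 2 the D3 difference was -0.45 (adjusted p = 0.0425). With a term for the ACTB ratio the knockdown difference turned to 0.17 (adjusted p = 0.643), a fit in which RNA quality and knockdown cannot be told apart.

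In untreated cells EGFR differed by -0.68 ± 0.27 between p53i and LacZi (adjusted p = 0.404). None of the 5 members was called there by limma, 1 of them had an unadjusted p under 0.05, and 0.00832% of all genes were called, with 1377 at an unadjusted p under 0.05. Without p53i untreated replicate 1 the difference was -1.12, but that fit left a lone untreated p53i array, the one with the highest ACTB ratio (8.72). With the ACTB covariate the difference in untreated cells was -0.11 (adjusted p = 0.976). The D3 response of EGFR differed between the siRNAs by 0.71 ± 0.32 (95% CI -0.00077 to 1.42, adjusted p = 0.893). Against the untreated mean it stood at 0.26, -0.12 and 0.35 at 8, 20 and 50 h in p53i cells, and at -0.65, -0.46 and -0.54 in LacZi cells.

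A further EGFR probe set (224999_at) was lower in p53i than in LacZi cells in each of the 4 conditions. Its signals were 417 and 219 untreated, then 372, 268 and 358 in p53i cells, against 512 and 497 untreated, then 398, 444 and 379 in LacZi cells. The ranges overlapped narrowly, and the difference was -0.46 ± 0.17 (adjusted p = 0.148 over all probe sets). With the ACTB ratio as a covariate it was -0.07 (adjusted p = 0.880). The probe set 201984_s_at gave -0.20 ± 0.15 for knockdown and -0.23 ± 0.15 for D3. Over the 10 arrays these 3 probe sets followed each other with Pearson r of 0.738 to 0.891, while the weak 211551_at, at 22.5 to 59.6, had r of -0.453 to -0.115 with them.

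ERBB2 passed the filter with all 3 probe sets and was not called in any comparison. Its main probe set (216836_s_at) had 13765 and 16177.5 in untreated p53i cells, then 14724, 13948 and 19099 at 8, 20 and 50 h. In LacZi cells the signals were 12690 and 14376 untreated, then 13830.5, 13764 and 14113. The other 9 arrays lay between 12690 and 16177.5, and p53i at 50 h stood above them. The highest signal of any probe set on that array was also the highest of the series, 42517 against 26460 to 33035 on the other arrays. An upper percentile of the signals, which depends less on a single probe set, was 10744 there and 9343 to 10395 on the other arrays. The knockdown difference was 0.17 ± 0.08 (95% CI -0.0014 to 0.33, adjusted p = 0.223), and 0.08 with quantile normalization (adjusted p = 0.302). The D3 difference was 0.06 ± 0.08 (95% CI -0.11 to 0.23, adjusted p = 0.736), and at 50 h it was 0.21 ± 0.11 (adjusted p = 0.296).

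The weaker ERBB2 probe set 234354_x_at separated the siRNAs. It had 331 and 324 untreated, then 463, 299 and 366 in p53i cells, against 266 and 233 untreated, then 228, 261 and 298 in LacZi cells. All p53i arrays lay above all LacZi arrays, the closest pair being 299 and 298, and 2.45% of all probe sets separated in that direction. The difference was 0.44 ± 0.13 (95% CI 0.16 to 0.71, limma adjusted p = 0.0738) and was not called. Of the 14 probe sets of the members 0 were called for knockdown (2 at an unadjusted p under 0.05), where 3.82% of all probe sets were called. The third ERBB2 probe set, 210930_s_at, gave 0.07 ± 0.16. The 3 ERBB2 probe sets agreed poorly over the arrays, with Pearson r of -0.156 to 0.469.

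The neighbours of ERBB2 in the HER2 amplicon (STARD3, PGAP3, MIEN1 and GRB7) summed to 19670 to 22443 on p53i arrays and 16939 to 19162 on LacZi arrays. Of these 4, 2 were called higher in p53i cells, PGAP3 by 0.55 and GRB7 by 0.38, where 6.5% of all genes tested were called in either direction. Their part, and that of the luminal markers, in the ERBB2 values was not tested. The 3 genes most like ERBB2 over the 10 arrays were RPL7, a protein of the large ribosomal subunit (Pearson r = 0.979), SLC39A9 (0.963) and ARHGEF37 (0.947). RPL7 too was highest on the p53i 50 h array, 34694 against 24552 to 29751 on the others.

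ERBB3, the receptor of neuregulins with little kinase activity of its own and a strong partner of ERBB2, passed the filter with 4 of 5 probe sets. Its main probe set (226213_at) had 3909 and 4019 in untreated p53i cells, then 4164, 4509 and 4632 at 8, 20 and 50 h. In LacZi cells it had 3650 and 3848 untreated, then 4250.05, 4173 and 4165. All D3 arrays lay above all untreated arrays, where 1.81% of all probe sets did. The difference was small, 0.16 ± 0.06 (95% CI 0.02 to 0.30, adjusted p = 0.181), and was not called.

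The second ERBB3 probe set (202454_s_at) had 893 and 716 untreated, then 1100.4, 1022 and 903 in p53i cells. In LacZi cells it had 587 and 842 untreated, then 987, 1067 and 995. The D3 arrays again lay above the untreated ones, with 903 and 893 as the closest pair, and the difference was 0.42 ± 0.12 (95% CI 0.17 to 0.67, adjusted p = 0.0813 over all probe sets). With the ACTB ratio as a covariate it was 0.45 (adjusted p = 0.0416). Of the 14 probe sets of the members, 3 had all D3 arrays above all untreated arrays, where 1.81% of all probe sets did. They were the main ones of HBEGF and ERBB3 and the second one of ERBB3. Those of ERBB3 report the same gene and followed each other (Pearson r = 0.657). The set is too small for that share to be read against the background. The other ERBB3 probe sets, 1563253_s_at and 215638_at, gave -0.04 ± 0.17 and -0.12 ± 0.19 with D3. Knockdown gave 0.08 ± 0.06 on the main probe set (95% CI -0.06 to 0.21, adjusted p = 0.487).

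**Figure D4:**
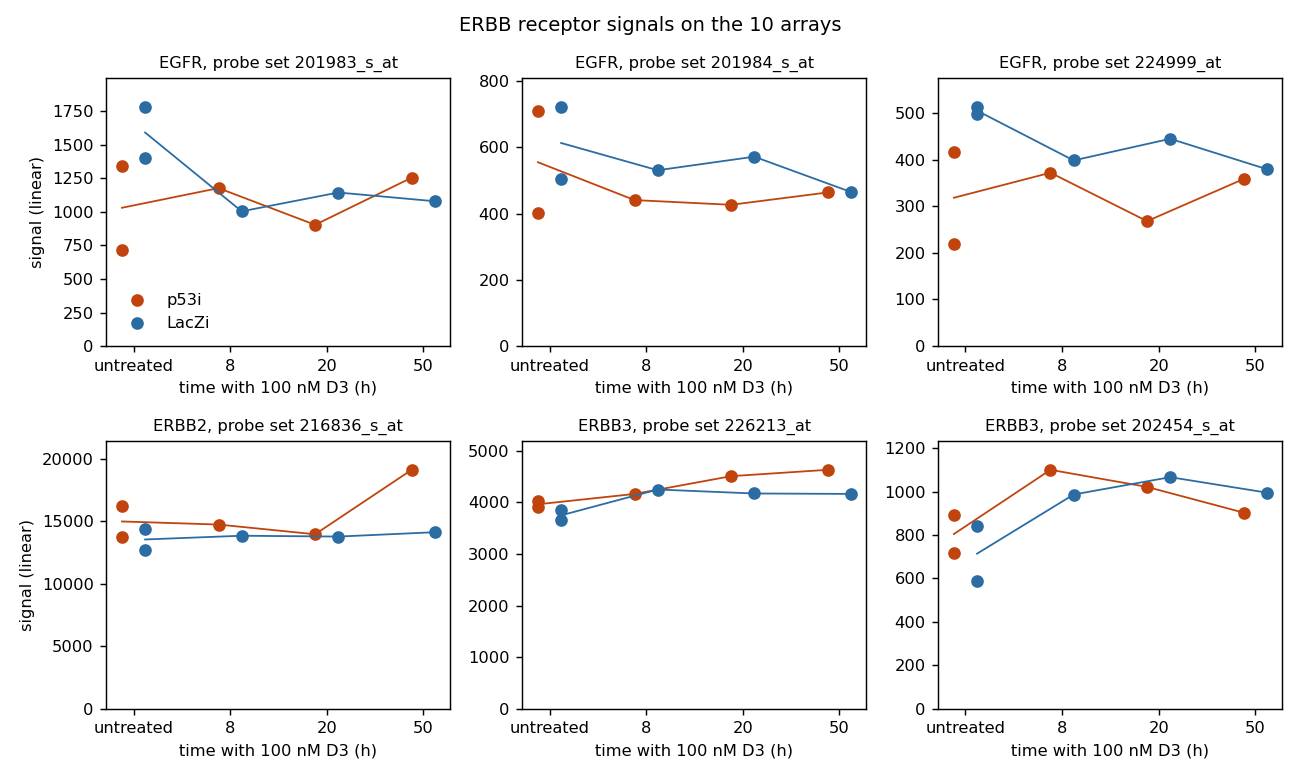
Signal (linear) of 3 EGFR, 1 ERBB2 and 2 ERBB3 probe sets on each of the 10 arrays by time with D3, p53i in orange and LacZi in blue, with lines through the means. The ERBB2 point of p53i cells at 50 h, 19099, stands above the others, and on both ERBB3 panels the D3 points lie above the untreated ones.

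For knockdown over all conditions 0 of the 5 members were called by limma (0 at an unadjusted p under 0.05), where 6.5% of all genes tested were called. Lists of genes that act with the receptors were set beside the members. Of the 5 other EGF-family ligands 2 were tested and 0 called for D3 or knockdown. EGF, the founding ligand of EGFR, had 284 and 281 in untreated p53i cells, then 299, 538 and 432 at the 3 times. In LacZi cells it had 243 and 256 untreated, then 515, 341 and 338. All D3 arrays lay above all untreated arrays, where 1.81% of all probe sets did. The difference was 0.57 ± 0.16 (adjusted p = 0.0754) and was not called. Without the p53i 8 h array it was 0.75 (adjusted p = 0.0129). NRG2, a neuregulin, gave 0.73 ± 0.37 with D3 (adjusted p = 0.300). Its mean was 58.4 with D3 and 29.8 without, so it passed the filter at 35.4 through the higher D3 signals.

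Of 8 ligand sheddases and their partners 7 were tested, and 1 was called for knockdown, where 6.5% of all genes tested were called. RHBDF1, a rhomboid-like protein that escorts the sheddase ADAM17, was higher in p53i cells, at 655 to 867 against 509 to 732 in LacZi cells (0.33 ± 0.08, adjusted p = 0.0356). Its call was lost in 14 of 22 alternatives, and the mean of its probe sets gave 0.01. RHBDF2, also on this list, went the other way with knockdown, by -0.33 ± 0.14 (limma adjusted p = 0.163), and was not called. ADAM17, which releases HBEGF and TGFA, gave -0.07 ± 0.09 with knockdown and 0.03 ± 0.10 with D3. ADAM10, the sheddase of EGF and BTC, gave -0.21 ± 0.08 with knockdown (adjusted p = 0.131). For D3 0 of the 7 were called by limma (1 at an unadjusted p under 0.05), and the median over the list was 0.03, against -0.0048 over all genes tested.

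Of 29 adaptors and effectors 21 were tested. In p53i cells 4 were called higher and none lower, where 3.39% of all genes tested were called higher and 3.11% lower. The median of the list was 0.07, against -0.0049 over all genes. MAPK3, the kinase ERK1, had 290.4 to 389 in p53i cells and 199 to 273 in LacZi cells, with no overlap (0.58 ± 0.11, adjusted p = 0.0140). Of all probe sets 2.45% had all p53i arrays above all LacZi arrays. MAP2K2, the kinase MEK2 that phosphorylates ERK1, had 1624 to 2634 and 1178 to 1358 (0.51 ± 0.12, adjusted p = 0.0263). GRB7, an adaptor that binds ERBB2 and lies beside it in the amplicon, gave 0.38 ± 0.09 (adjusted p = 0.0324), and PIK3R3, a regulatory subunit of PI3K, gave 0.33 ± 0.09 (adjusted p = 0.0493). With the ACTB ratio as a covariate none of the 4 was called. The values were then 0.55 for MAPK3, 0.26 for MAP2K2, 0.33 for GRB7 and 0.22 for PIK3R3. RNA quality and knockdown cannot be told apart in these fits. With the mean of its probe sets MAP2K2 gave 0.10. Over 22 alternatives the call was lost in 16 for PIK3R3, 12 for GRB7, 11 for MAP2K2 and 5 for MAPK3.

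With D3, 1 of the 21 rose and 1 fell, where 4.4% of all genes tested were called in either direction. AKT1, the kinase downstream of PI3K, had 1982 to 2355 with D3 and 1507 to 2109 without (0.36 ± 0.09, adjusted p = 0.0363). PIK3R3 fell by 0.39 on the log2 scale (SE 0.09, adjusted p = 0.0356). Each call was lost in 14 of 22 alternatives, and with median centring AKT1 gave 0.27. The list median with D3 was -0.0029, against -0.0048 over all genes.

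Of 15 genes that restrain or remove the receptors 14 were tested, and 1 was called for knockdown, where 6.5% of all genes tested were called. ERRFI1, also called MIG6, an inhibitor that binds the kinase domain of EGFR and ERBB2, was lower in p53i cells. Its signals were 1105 and 706 untreated, then 1101, 1091 and 1408 in p53i cells, against 1674 and 1301 untreated, then 1903, 1710.2 and 1655 in LacZi cells. The p53i signal was lower in each of the 4 conditions, although the ranges overlapped, and the difference was -0.62 ± 0.13 (95% CI -0.90 to -0.34, adjusted p = 0.0177). With the ACTB ratio as a covariate it was -0.44 (adjusted p = 0.197), and the call was lost in 8 of 22 alternatives. LRIG1, a membrane protein that promotes degradation of the receptors, gave 0.44 ± 0.13 (adjusted p = 0.0595). This was not a uniform shift, with 0.81 ± 0.16 in untreated cells (limma adjusted p = 0.267). With D3 its signals were 592, 613 and 573 at 8, 20 and 50 h in p53i cells, against 622, 433 and 502 in LacZi cells. CBL, the ubiquitin ligase of EGFR, gave -0.10 ± 0.12. The list median with knockdown was -0.08. With D3 0 of the 14 were called by limma (2 at an unadjusted p under 0.05).

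Of 8 partners of ERBB2 such as the chaperones HSP90AA1 and HSP90AB1, 7 were tested, and 0 were called for knockdown (1 at an unadjusted p under 0.05) or for D3 (0 at an unadjusted p under 0.05) in limma's test. Their medians were 0.04 for knockdown and -0.04 for D3.

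**Figure D5:**
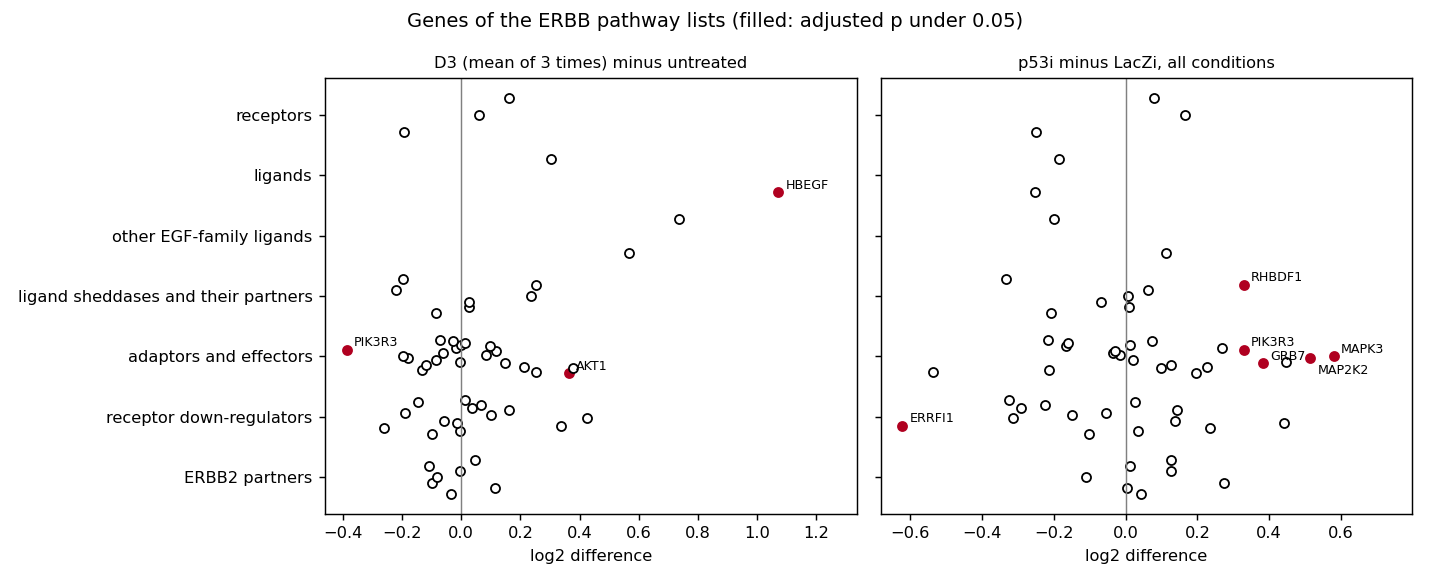
Log2 difference of each tested gene of the ERBB lists, for D3 (mean of the 3 times) minus untreated on the left and p53i minus LacZi on the right. Filled red points have adjusted p under 0.05 over all genes. HBEGF, at 1.07, lies farthest from 0 on the left, and ERRFI1, at -0.62, and MAPK3, at 0.58, on the right.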

How the data were processed

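Transcripts of 10 samples were measured on 1-colour Affymetrix arrays. The deposited table held 1 linear intensity for each of 54675 probe sets per array, MAS5 signals per the submitters' processing notes, of a version not given in the sources used here. Each array's mean without the 2% lowest and highest values was 200, so no further normalization was applied. The number of arrays limits the precision. Per the labels' protocols, 6 ug of Trizol-extracted total RNA were labelled. D3 followed transfection by 48 h per the series text and by 24 h per the sample text. For p53i at 8 h the sample title gives the siRNA in another spelling, and that sample was grouped by the remaining labels. Untreated arrays are called biological replicates in the labels.

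The platform annotation gave 41097 probe sets 1 symbol, 1801 several and 11777 none. Only the first kind was used, and RefSeq gene IDs changed 0 symbols. Signals were converted to log2(signal + 16), which understates changes of weak genes. The upper 50% of probe sets by mean log2 signal were kept, and the one with the highest mean stood for a gene. The test was limma's (version 3.58.1, R 4.3.3, lmFit with trended eBayes, two-sided p, Benjamini-Hochberg over 12022 genes or 22031 probe sets, threshold 0.05). Effects of knockdown and D3 were estimated in a model with siRNA and D3 time as additive terms (5 residual degrees of freedom), the difference in response from the same model with an interaction (4), and knockdown in untreated cells from 8 group means (2). A lone array per siRNA and D3 time is assumed to vary like the others. Called means an adjusted p under 0.05. The test was checked on simulated data.

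The members, the pathway and marker lists and the tests were chosen with earlier results of these data known. All 10 members were named, and of each pathway list the members called and at most 4 others, VDR and CYP24A1 as a check of D3, and the 3 genes most like ERBB2 and each member called. VDR, the D3 receptor, gave -0.32 ± 0.10 with D3 (adjusted p = 0.0874). PGAP3, KRT5, KRT7, KRT8, KRT14 and CDH1 were named as markers after their values were seen. Alternatives covered scaling, offset, filter, probe-set choice, the intensity trend, the model, the ACTB ratio, the replicate number and each array left out. AREG, EPGN and some genes of the adaptor and restraint lists are not reported here.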

Additional observations from a re-analysis of the deposited data

Results flagged for a closer look

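In 56 groups of 4 to 6 arrays (each member probe set past the filter, over p53i, LacZi, D3 and untreated arrays), 3 held an array far from the others, and chance alone gives about 1 in 20. The main ERBB2 probe set (216836_s_at) had 19099 on the p53i 50 h array, against 13764 to 14724 on the other 5 D3 arrays. ERBB2 210930_s_at had 188 on the p53i 8 h array, against 109 to 125 on the other 5. EGFR 201984_s_at had 708 on p53i untreated replicate 1, against 402 to 464 on the other 4 p53i arrays.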

How the results depend on the processing

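HBEGF kept its direction with D3 in all 21 alternatives, at 0.60 to 1.28 (0.73 with an offset of 64, 1.28 with none), and its call in 19. With the upper 25% of probe sets HBEGF was not tested, so 0 members were called for D3 over the 3 times, 0 at 50 h and 0 probe sets. With the mean of a gene's probe sets 0 members were called for D3 over the 3 times and 0 at 50 h. At 50 h 0 were also called with no filter and with no intensity trend. Leaving out 1 array gave 0 to 2 members for D3 over the 3 times, 0 to 1 at 50 h and 0 to 1 for knockdown in untreated cells. The second member in D3 was EGFR. The member in untreated cells was also EGFR, in a fit that left a lone untreated p53i array. For D3, probe sets called numbered 0 with no intensity trend and with 8 group means, 2 with the replicate block and with the ACTB ratio as a covariate, and 0 to 2 with 1 array left out (0 without LacZi untreated replicate 1, LacZi 8 h or p53i 20 h, and 2 without p53i untreated replicate 2). The cause of these changes was not tested. The untreated duplicates share numbers across siRNAs, but only 2 pairs exist and their deviations correlated at 0.216, so the numbers were not taken as a pairing. With the replicate number as a block, 1 member was called for knockdown in untreated cells, EGFR at -0.68 (adjusted p = 0.0173). No called value changed sign. Signals near background limit what can be said of TGFA, EREG, BTC, NRG1 and ERBB4.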
